A study of Mus musculus with 4 samples.

Results

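Ribosome biogenesis genes are described here as a set of 38 mouse genes whose products make, modify, process or assemble ribosomal RNA. A gene was included when the transcript named for an array probe carried one of the 38 symbols in RefSeq. That rule uses no measured value, but the symbols were chosen with earlier results of these data known. All 38 were on the array, through 51 probes, out of 21154 genes that could be named. By role they comprise 2 subunits of RNA polymerase I, 3 core proteins of box C/D and 3 of box H/ACA small nucleolar ribonucleoproteins (snoRNPs), 7 nucleolar proteins of several roles, 13 factors of the small ribosomal subunit and 10 of the large one.

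Expression was measured with 4 one-colour Agilent mouse arrays, 1 for each of 4 groups: LSK cells under DMSO, LSK cells under JQ1, MEP cells under DMSO and MEP cells under JQ1. LSK cells are the Lineage-c-Kit+Sca-1+ stem and multipotent progenitor fraction of bone marrow, MEP cells are megakaryocyte-erythroid progenitors, and JQ1 is an inhibitor of BET bromodomain proteins that was given for 2 weeks, with its solvent DMSO as the control. All 4 groups carried the same genotype, JAK2V617F/Ezh2Δ/Δ on C57BL/6: marrow with the activating JAK2 mutation, floxed Ezh2 and an inducible Cre-ERT2 had been grafted into lethally irradiated CD45.1+ wild-type recipients before Ezh2 was deleted. Neither an Ezh2-intact nor a JAK2 wild-type group is analysed here, and the number and age of the mice behind each array and the promoters of the transgenes are not given in the sources used here. With 1 array per group there was no replicate, so no test was possible and no p-value or standard error is given. The differences below describe these 4 arrays.

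Ribosomes are built in the nucleolus, where RNA polymerase I transcribes the long precursor of the ribosomal RNAs. Box C/D snoRNPs methylate and box H/ACA snoRNPs pseudouridylate the precursor at sites chosen by their guide RNAs, while a large assembly around the U3 snoRNA, the small-subunit processome, and a separate series of large-subunit factors cut and fold it. In blood-forming tissue early erythroid cells are known for heavy demand for ribosomes, and Myc, a transcription factor that binds the E-box CACGTG and whose gene is a well-known target of BET inhibition, drives many of these genes.

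The signal of a probe is given as a level in log2 units above its own array's 75th percentile, and a difference is the log2 difference of 2 arrays after the median measured gene of that comparison was set to 0. A gene counted as measured when its brightest probe was well above background on both arrays. All 51 probes of the 38 genes were well above background on all 4 arrays, so no gene of the set was lost to a filter. The share of all probes well above background was 45.2% to 47.3% on 3 arrays and 53.2% for MEP under DMSO, and no spot was saturated. Across the 12011 genes measured on every array, the correlation of levels was 0.989 between the LSK arrays, 0.983 between the MEP arrays and 0.969 to 0.974 between cell types. The labels were checked with marker genes. Ly6a, which encodes Sca-1, read 4.49 and 4.28 in LSK under DMSO and JQ1 against -0.32 and 0.22 in MEP, and Klf1, an erythroid transcription factor, read -1.61 and -1.76 in LSK against 1.97 and 3.05 in MEP. Kit, the other defining surface gene of LSK, read 4.45, 4.42, 3.57 and 3.85 in LSK under DMSO, LSK under JQ1, MEP under DMSO and MEP under JQ1, the order used for all such series of 4 values. Kit was thus high in both cell types. Its difference of MEP from LSK under DMSO was -0.67, against -4.58 for Ly6a. Not every marker went this way. Relative to the median gene under DMSO, 8 of 10 stem cell markers were lower in MEP than in LSK, and 2, Slamf1 and Mecom, were higher. Of 11 measured erythroid markers 10 were higher in MEP and 1, Hbb-bt, was lower.

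The array from MEP under DMSO differed from the other 3 in a group of transcripts outside the set, which bears on every comparison that uses it. Of 5 measured nuclear noncoding RNAs, 4 were at least 2-fold lower in MEP under JQ1 than under DMSO, against 5.77% of all genes. The summed linear level of that list was 14.9, 15.8, 79.9 and 11.7. The sixth RNA of the list, Meg3, was below background on 3 arrays. Of 15 immediate early genes, 14 were at least 2-fold lower in the same comparison, with summed levels of 186, 156, 516 and 179. The part of these transcripts in the results below was not tested. Because whole sorted fractions were measured, fewer cells of a type and less RNA per cell cannot be told apart.

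The only measure of error came from genes with several probes, as the SD of a difference between probes of 1 gene. For probes above the array's 75th percentile it was 0.14 for the JQ1 difference in LSK cells, 0.26 for that in MEP cells, 0.26 for the difference of the cell types under DMSO and 0.17 for that under JQ1. Over all probes it was 0.26, 0.39, 0.37 and 0.27. Genes were counted at 2 sizes of difference, 0.32 on the log2 scale and 2-fold. The smaller size lay within the spread of all probes in MEP, so that a single gene past it cannot be set apart from that spread. This spread compares probes on the same pair of arrays. It covers neither mice nor sorts, nor an error common to a whole array. The scanner software's own error of a member's signal was at most 10.1%.

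The promoters of the members are shown because Myc, through the E-box, is a known regulator of this gene class. Of the 38 members, 32 had a window from 250 bases before to 50 bases after the start in RefSeq (GRCm38.p6). CACGTG, searched on both strands, was found in 9 of the 32 (28.1%), against 8.09% of 27025 genes and 7.15% of 32851 windows. In 8 of the 9 the first letter of the motif lay after the start, and no match overlapped either of the other motifs searched. The 9 stretches of 30 bases follow, read along the gene's strand, with the E-box in capitals.
Grwd1, chr7:45830740-45830769, minus strand: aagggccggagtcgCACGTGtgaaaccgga
Ltv1, chr10:13193092-13193121, minus strand: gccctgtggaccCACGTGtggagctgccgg
Mybbp1a, chr11:72441347-72441376, plus strand: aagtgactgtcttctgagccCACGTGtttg
Nle1, chr11:82908355-82908384, minus strand: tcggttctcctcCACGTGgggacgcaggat
Nop2, chr6:125131811-125131840, plus strand: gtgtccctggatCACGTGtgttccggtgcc
Pes1, chr11:3963965-3963994, plus strand: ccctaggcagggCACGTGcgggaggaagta
Tsr1, chr11:74898092-74898121, plus strand: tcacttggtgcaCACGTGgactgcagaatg
Utp20, chr10:88826765-88826794, minus strand: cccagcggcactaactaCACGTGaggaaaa
Wdr43, chr17:71616220-71616249, plus strand: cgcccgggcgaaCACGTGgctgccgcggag

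The ETS-type sequence CCGGAAG, also searched on both strands, was in 12 of the 32 windows (37.5%), against 9.93% of genes. CCAAT, the box bound by NF-Y, was in 10 (31.2%), against 41.1% of genes. A match of letters is a description and not a bound site. For the genes that stood highest and lowest under JQ1 in MEP cells, Ddx21 and Nolc1 at one end and Noc3l at the other, the 100 bases before the start are printed below with CCGGAAG in capitals where it occurs. These stretches hold no CACGTG. The window of Noc3l also held a CCGGAAG, with its first letter at base 26 after the start and so outside the printed stretch. The window of Ddx21 held none.
Ddx21, chr10:62602299-62602398, minus strand: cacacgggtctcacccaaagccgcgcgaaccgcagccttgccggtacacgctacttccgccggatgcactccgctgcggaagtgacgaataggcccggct
Nolc1, chr19:46075747-46075846, plus strand: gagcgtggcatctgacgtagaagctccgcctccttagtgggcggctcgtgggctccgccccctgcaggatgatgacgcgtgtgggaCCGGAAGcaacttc
Noc3l, chr19:38819238-38819337, minus strand: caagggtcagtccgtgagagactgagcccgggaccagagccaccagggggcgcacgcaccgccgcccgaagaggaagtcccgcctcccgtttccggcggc

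The first question was what 2 weeks of JQ1 did to these genes in MEP cells. Relative to the median gene, 34 of the 38 were higher under JQ1 than under DMSO, with a median difference of 0.35 (1.28-fold); all 12540 measured genes split evenly at that point by construction. Higher by at least 0.32 were 20 members, against 17.5% of all genes, and 1 member, Noc3l, was lower by at least 0.32, against 24.8%. No member was 2-fold higher (0.981% of all genes) and Noc3l alone was 2-fold lower (5.77%). The values ran from -1.33 for Noc3l to 0.74 for Ddx21, and 15 members stood at or above 0.43, a point reached by 10% of all genes. The size of the set's median depended on where 0 was placed: it was 0.69 before centring, 0.25 when centred on genes of above-median signal, 0.21 after quantile normalization, and -0.17 when the arrays were scaled on the spiked-in control RNAs. The count depended on it too: with quantile normalization 7 of 38 members were higher by at least 0.32, against 19.0% of all genes and so near the background, and with spike-in scaling none was, against 1.47%. Spike-in scaling and no centring each moved every gene of the comparison by the same amount. The median of all genes was then -0.53 with spike-in scaling and 0.34 before centring.

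**Figure D1:**
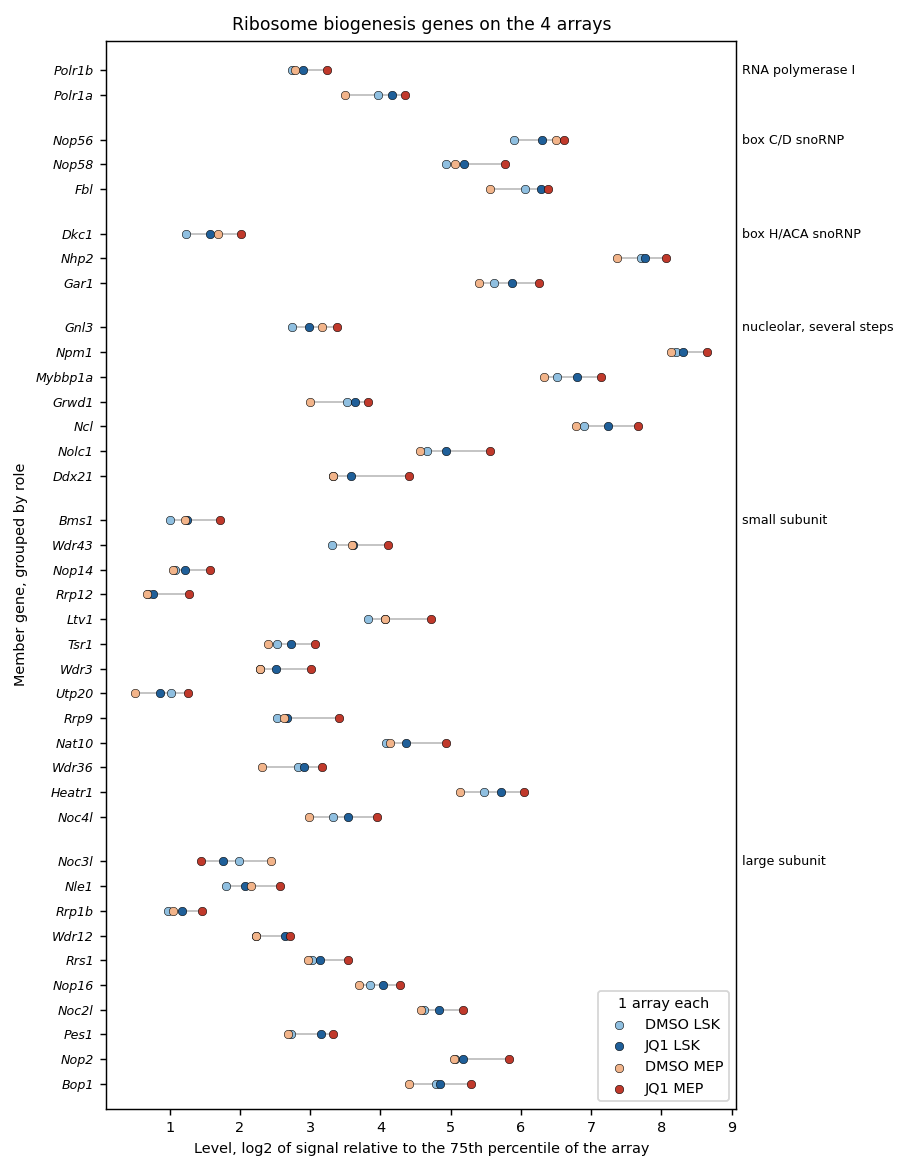
Level of each of the 38 genes on each of the 4 arrays, in log2 units above the array's 75th percentile, with 1 array per group and no error bar. For 37 of 38 genes the highest level was that of MEP under JQ1, before centring on the median gene, as it was for 44.3% of all genes. The lowest was that of MEP under DMSO for 23 of 38 genes and for 54.8% of all genes.

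Both RNA polymerase I subunits of the set were above the median gene in MEP. Polr1a, the largest catalytic subunit, read 3.97, 4.17, 3.50 and 4.35. It was lowest in MEP under DMSO and highest in MEP under JQ1, a difference of 0.52 (1.43-fold). Polr1b, the second-largest subunit, read 2.74, 2.90, 2.78 and 3.24, and its JQ1 difference in MEP was 0.12.

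Among the core proteins of box C/D snoRNPs, Fbl (fibrillarin), the RNA 2′-O-methyltransferase, read 6.05, 6.29, 5.56 and 6.39. MEP under DMSO was again the lowest array, and the JQ1 difference in MEP was 0.49 (1.41-fold). Nop58 was higher by 0.37. Its partner Nop56 was one of 4 members below the median gene: it read 5.90, 6.30, 6.50 and 6.61, and its difference of -0.23 came from a level that was higher under JQ1 by less than the median gene. Both probes of Nop56 gave that sign, at -0.23 and -0.10.

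Among the box H/ACA proteins, Gar1 read 5.61, 5.87, 5.41 and 6.26, and was higher under JQ1 in MEP by 0.51 (1.43-fold). Nhp2 was higher by 0.36. Dkc1 (dyskerin), the pseudouridine synthase of these particles, read 1.23, 1.58, 1.69 and 2.01, and its difference of -0.02 put it at the median gene.

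The nucleolar proteins of several roles included the 2 members that were highest in MEP. Of the 7, 5 were higher by at least 0.32, against 17.5% of all genes. Ddx21, a DEAD-box RNA helicase that acts in both ribosomal RNA transcription and processing in human cells, read 3.33, 3.58, 3.33 and 4.41. The LSK arrays and MEP under DMSO lay close together and MEP under JQ1 stood above them, by 0.74 (1.67-fold) over MEP under DMSO, and 97.9% of measured genes had a smaller difference. A second Ddx21 probe gave 0.51. Nolc1, a snoRNP chaperone, read 4.66, 4.93, 4.56 and 5.55, a difference of 0.65 (1.57-fold) that its dimmer probe gave as 0.15.

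Ncl (nucleolin), among the most abundant proteins of the nucleolus, read 6.90, 7.24, 6.78 and 7.66. Its JQ1 difference in MEP was 0.54 (1.46-fold) on the brightest probe and -0.11 on the dimmer one, so the probes of this gene disagreed in sign. Npm1 (nucleophosmin), a chaperone of ribosome assembly, read 8.20, 8.30, 8.14 and 8.66 on its brightest probe, with a difference of 0.18. Its 5 probes gave 0.08 to 0.45, all above 0. Grwd1, a histone-binding nucleolar protein, read 3.52, 3.64, 2.99 and 3.82, lowest in MEP under DMSO, a difference of 0.49 that its dimmer probe gave as 0.08. Mybbp1a was higher by 0.47, whereas Gnl3 (nucleostemin) was at -0.12.

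All 13 small-subunit factors were above the median gene in MEP, from 0.16 to 0.63. Of these, 8 were higher by at least 0.32, against 17.5% of all genes. Noc4l read 3.32, 3.53, 2.98 and 3.95, a JQ1 difference of 0.63 (1.55-fold). Heatr1, a processome subunit that is required for RNA polymerase I transcription in human cells, read 5.48, 5.71, 5.13 and 6.04, a difference of 0.57 (1.48-fold). In both, MEP under DMSO was the lowest of the 4 arrays and MEP under JQ1 the highest. Before centring these were the lowest array for 54.8% and the highest for 44.3% of all genes.

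The same order held for Wdr36, another processome subunit, which read 2.82, 2.92, 2.32 and 3.17 and was higher under JQ1 by 0.52. Its dimmer probe gave -0.06. Nat10, which acetylates cytidines of 18S ribosomal RNA, read 4.07, 4.36, 4.14 and 4.93, a difference of 0.45. Rrp9, a protein of the U3 snoRNP, differed by 0.44, Utp20 by 0.42, Wdr3 by 0.39 and Tsr1 by 0.34, and the 2 Tsr1 probes lay close together at 0.34 and 0.41. The other 5, Ltv1, Rrp12, Wdr43, Nop14 and Bms1, lay between 0.16 and 0.31.

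Large-subunit factors had the lowest median of the roles, 0.24. Higher by at least 0.32 were 2 of 10, near the 17.5% of all genes. Bop1, which with Pes1 and Wdr12 forms the PeBoW complex of 28S and 5.8S ribosomal RNA maturation, read 4.79, 4.85, 4.41 and 5.29. Its JQ1 difference in MEP was 0.54 (1.45-fold), while Pes1 gave 0.30 and Wdr12 0.14. Nop2, a methyltransferase of 28S ribosomal RNA, read 5.06, 5.18, 5.05 and 5.82, a difference of 0.43. Both were highest in MEP under JQ1, and Bop1 was lowest in MEP under DMSO, where Nop2 lay level with LSK under DMSO.

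Noc3l, whose yeast counterpart acts in the transport of large-subunit precursors, went the other way. It read 1.98, 1.76, 2.44 and 1.45, the only member with its lowest level in MEP under JQ1, and its difference of -1.33 was 2.52-fold lower. MEP under DMSO held its highest level, as it did the highest summed level of the nuclear noncoding RNAs and of the immediate early genes described above. That array is also the one subtracted in the JQ1 difference in MEP. The gene had 1 probe. The other 5 large-subunit factors, Noc2l, Nop16, Rrs1, Rrp1b and Nle1, lay between 0.07 and 0.26.

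**Figure D2:**
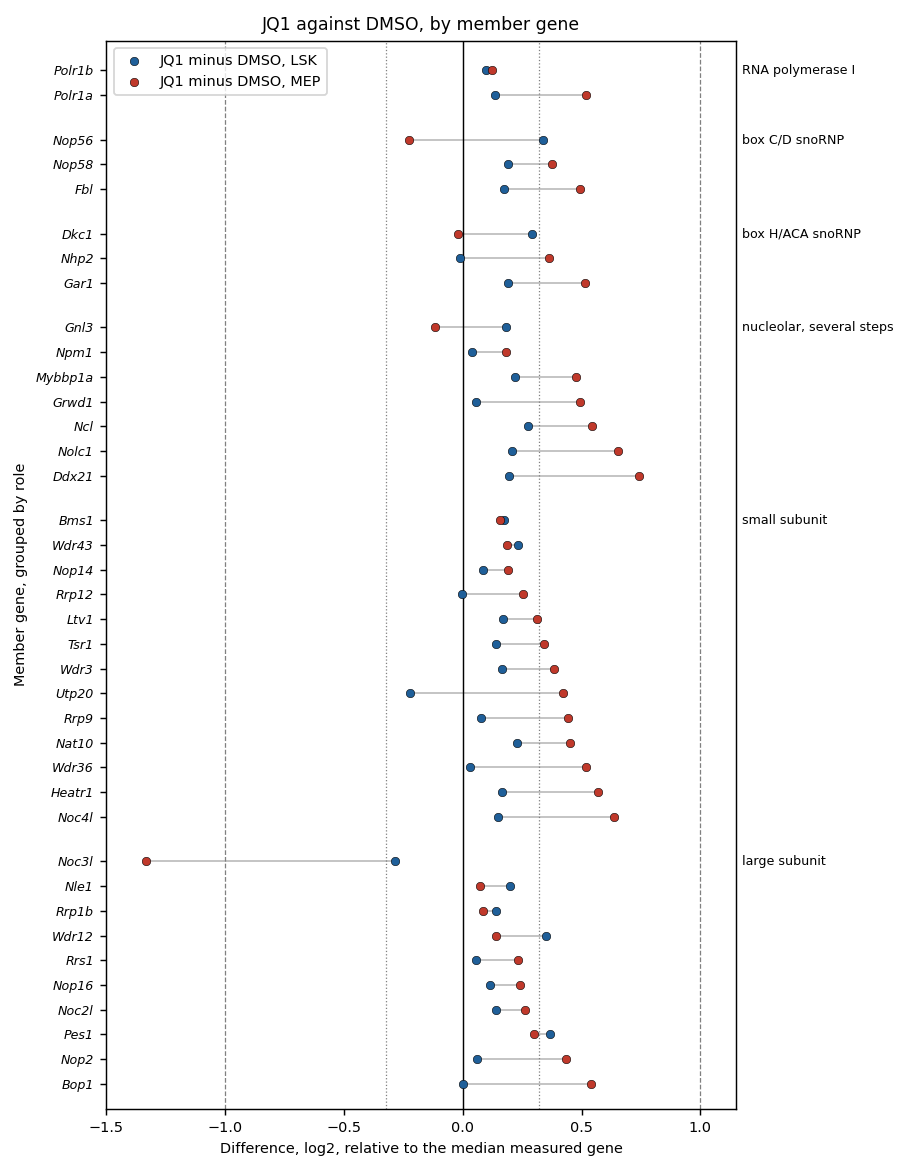
JQ1 minus DMSO in LSK and in MEP cells for each of the 38 genes, as log2 differences relative to the median measured gene, with 1 array per group. The dotted lines mark a difference of 0.32 either way and the dashed lines 2-fold. Beyond the upper dotted line lie 20 members in MEP, against 17.5% of all genes, and 3 in LSK, against 9.27%. Noc3l lies lowest in both.

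In LSK cells JQ1 was compared with DMSO in the same way, on a pair of arrays that shares no array with the MEP pair, though all 4 lay on 1 slide. Relative to the median gene 33 of 38 members were higher, where all 12326 genes split evenly by construction, but the median difference was 0.16 (1.11-fold). Only Pes1, Wdr12 and Nop56 were higher by at least 0.32 (9.27% of all genes), and no member was lower by at least 0.32 (15.9%). None was 2-fold higher, against 0.544%, or 2-fold lower, against 3.22%. The values ran from -0.29 for Noc3l to 0.37 for Pes1, and 3 members stood at or above 0.31, a point reached by 10% of all genes.

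Pes1 read 2.73, 3.16, 2.68 and 3.32, a JQ1 difference of 0.37 in LSK and 0.30 in MEP. In each cell type the JQ1 array was the higher of its pair. A second Pes1 probe, dimmer than the first, gave 0.07 and -0.16. Wdr12, its partner in the PeBoW complex, read 2.23, 2.64, 2.23 and 2.71, a difference of 0.35 in LSK. Nop56 gave 0.34 on its brightest probe and 0.31 on the other.

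By role the LSK medians were 0.12 for the RNA polymerase I subunits, 0.19 for box C/D, 0.19 for box H/ACA, 0.20 for the nucleolar proteins, 0.15 for the small-subunit and 0.13 for the large-subunit factors. No role had a median as large as the smaller call size. The members below the median gene were Nhp2, Bop1, Rrp12, Utp20 and Noc3l, of which the first 3 lay between -0.01 and 0. Utp20, known from yeast as a large protein of the processome, read 1.02, 0.86, 0.51 and 1.27 and was lower under JQ1 in LSK by 0.22 but higher in MEP, and both signs turned with spike-in scaling (0.41 and -0.10). The median gene stood at 0.63 and -0.53 in that setting.

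The JQ1 differences of both cell types can be set side by side because they share no array. Both were above the median gene for 30 of 38 members (78.9%), against 27.5% of all 12011 genes. The difference was larger in MEP than in LSK for 28 members (73.7%), against 50.8% of all genes, by a median of 0.21. This did not hold in every setting: without the filter on dim probes 17 of 38 were larger in MEP (median -0.021), with spike-in scaling 0 of 38 (median -0.95) and with quantile normalization 21 of 38 (median 0.053). The median of all genes in these settings was -0.080, -1.15 and -0.013. In the main setting 13 members were larger in MEP by at least 0.32, against 22.3% of all genes, and smaller by at least 0.32 were 2, Noc3l and Nop56, against 24.6%. None was 2-fold larger in MEP, against 3.36%, and Noc3l was 2-fold smaller, against 5.84%. The members did not keep their order from one cell type to the other: across the 38 genes r was 0.29 by Pearson and rho -0.04 by Spearman, and without Noc3l they were -0.23 and -0.13 across 37. Over all genes they were 0.16 and 0.11, and genes are not independent replicates.

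Signal strength is shared by the members and bears on these values. In MEP the median JQ1 difference of all genes climbed with signal, from -0.25 in the dimmest of 5 equal bins through -0.12, -0.01 and 0.09 to 0.15 in the brightest. Members lay in the upper 3 bins only, 7, 14 and 17 of them, with medians of 0.16, 0.32 and 0.45. Within those bins 5 of 7, 12 of 14 and 16 of 17 were above the bin's own median gene. In the brightest bin 12 of 17 members were higher by at least 0.32, against 27.2% of all genes in that bin. After a curve of difference on signal had been removed, the median of the 38 was 0.27 in place of 0.35. In LSK the bins of all genes read -0.16, -0.01, 0.04, 0.05 and -0.01, so that across the upper 3 bins the median did not climb.

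**Figure D3:**
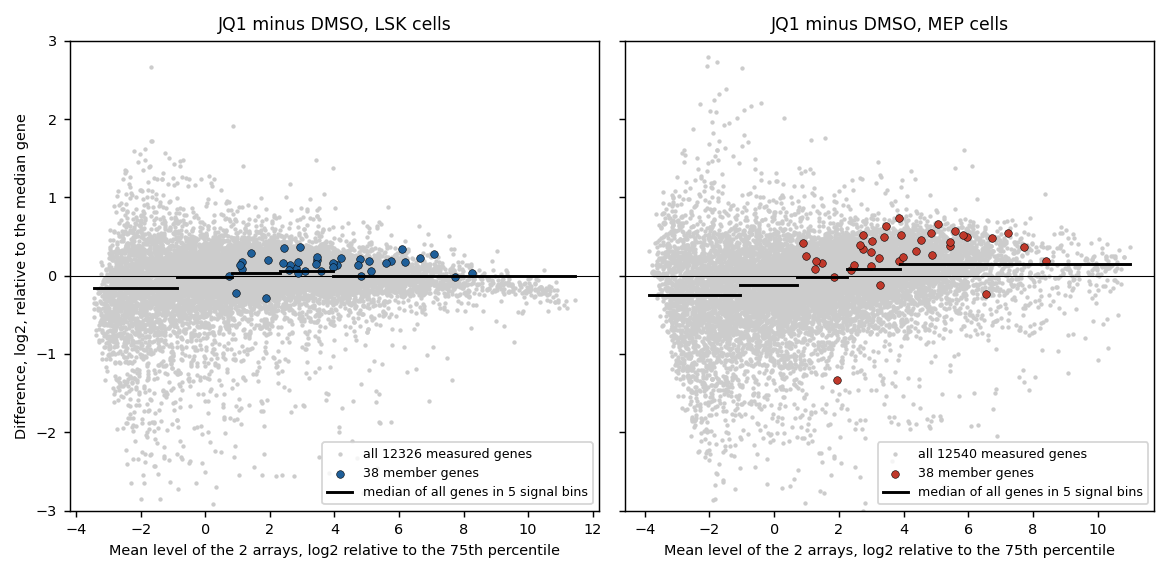
JQ1 minus DMSO difference of every measured gene (grey) and of the 38 ribosome biogenesis genes (coloured) against mean signal, in LSK and MEP cells, both axes in log2 units, with genes beyond 3 on the vertical axis not shown. Black bars are medians of all genes in 5 equal bins of signal; in the brightest bin in MEP the bar stands at 0.15 and the members' median at 0.45.

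Members with several probes gave a further check. In the 10 such genes the median JQ1 difference in MEP was 0.42 on the brightest probes and 0.15 on the 13 dimmer ones, and in LSK 0.20 and 0.12. All probes of a gene were above the median gene in 10 of 10 genes in LSK and in 6 of 10 in MEP. The exceptions in MEP were Ncl, Wdr36, Pes1 and Nop56.

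Cell types were compared next. Under DMSO, 29 of 38 members were higher in MEP than in LSK relative to the median of 12403 genes, with a median of 0.18. Higher by at least 0.32 were 9 members, against 26.1% of all genes, so this share was near the background, and none was lower by at least 0.32, against 23.5%. None was 2-fold higher (5.68%) or 2-fold lower (4.31%). The range was -0.31 for Grwd1 to 0.82 for Nop56. Nop56 read 5.90 in LSK and 6.50 in MEP under DMSO, and its second probe gave 0.67. Dkc1 and Noc3l were each higher in MEP by 0.68, Gnl3 by 0.64 and Nle1 by 0.57. Nop56, Dkc1, Noc3l and Gnl3, the highest here, were the 4 members below the median gene for JQ1 in MEP. Both comparisons use the array of MEP under DMSO, with opposite sign, so each repeats that array's reading. Before centring the median of the set was -0.04 and that of all genes -0.22. The set's direction in this comparison thus rested on the centring.

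Under JQ1 the members stood higher in MEP than in LSK for 36 of 38, relative to the median of 12257 genes, with a median of 0.32. Higher by at least 0.32 were 19, against 18.1% of all genes, and Noc3l alone was lower by at least 0.32, against 20.8%. None was 2-fold higher (3.92%) or lower (4.01%). Ddx21 was again highest, at 0.75, followed by Rrp9 at 0.67, Ltv1 at 0.59, Nop2 at 0.57 and Nolc1 at 0.55. The small-subunit factors had the highest median of the roles, 0.40. This comparison uses the same JQ1 MEP array as the JQ1 comparison in MEP, and each repeats that array's reading.

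**Figure D4:**
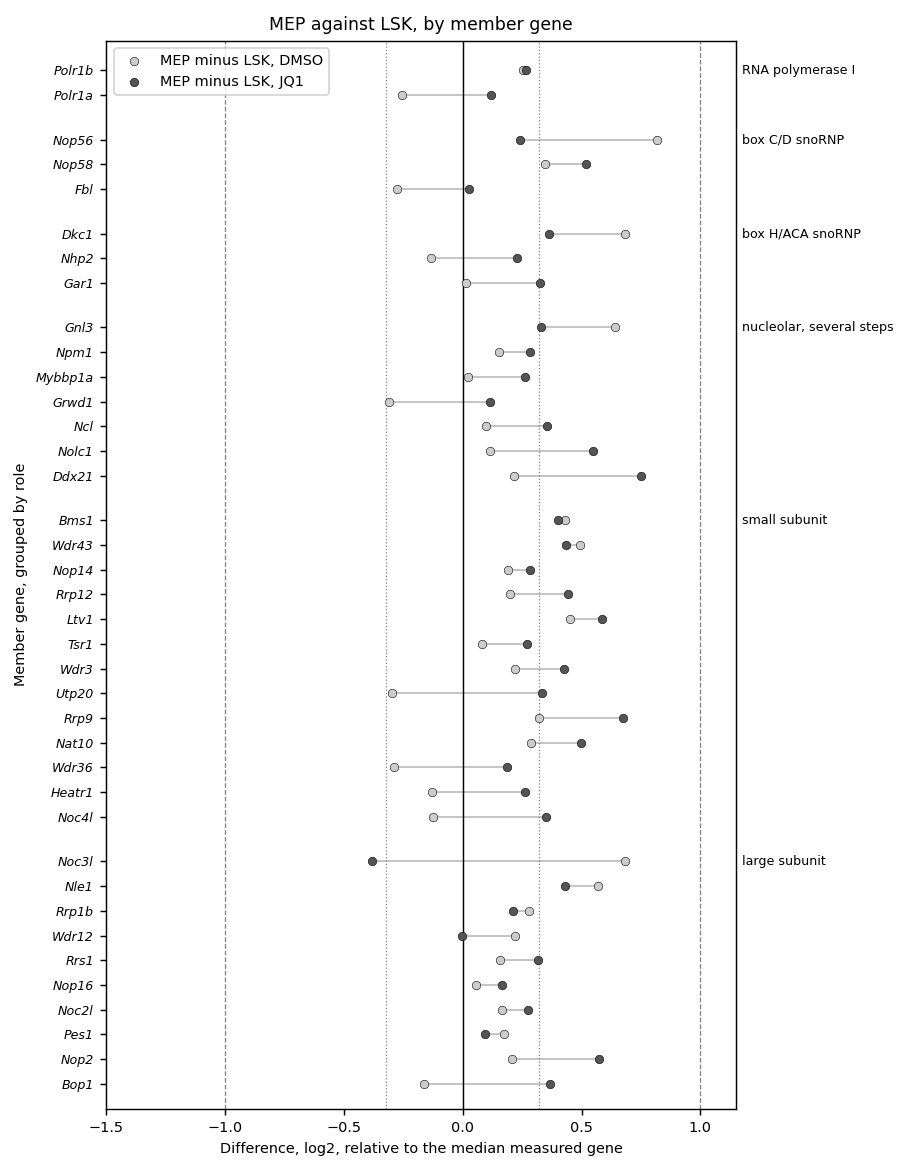
MEP minus LSK under DMSO and under JQ1 for each of the 38 genes, as log2 differences relative to the median measured gene, with 1 array per group. Dotted lines mark 0.32 either way and dashed lines 2-fold. The upper dotted line is passed by 9 members under DMSO, against 26.1% of all genes, and by 19 under JQ1, against 18.1%.

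With each array set to its own median gene, the median level of the 38 members was 1.68, 1.89, 1.75 and 2.27. MEP under JQ1 held the highest level for 35 members (30.5% of all genes) and MEP under DMSO for the other 3. The lowest level was that of LSK under DMSO for 24 (22.1% of all genes) and of MEP under DMSO for 12 (35.9%).

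Members with and without an E-box in the window had similar medians. In MEP the median JQ1 difference was 0.34 for the 9 genes with CACGTG, from 0.07 to 0.49, and 0.36 for the 23 without, from -1.33 to 0.74; in LSK both medians were 0.17. Of the genes printed above, Mybbp1a, Grwd1, Nop2 and Utp20 were higher by at least 0.32 in MEP, as was Tsr1, and Pes1, Ltv1, Wdr43 and Nle1 were not. A second feature outside the selection was the presence of snoRNA genes within the bounds of the member gene. RefSeq places such genes within 7 members: Ncl, Nop56, Nop58, Wdr43, Dkc1, Tsr1 and Gnl3. Their median JQ1 difference was 0.19 in MEP and 0.23 in LSK, against 0.39 and 0.14 for the other 31. The split was made after the values were seen and was not tested.

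Other genes of the pathway were read from lists of known factors. Under JQ1 in MEP, 17.5% of all genes were higher by at least 0.32 and 24.8% lower. There 29 of 35 other small-subunit factors were above the median gene, 14 higher by at least 0.32 and 2 lower, with a median of 0.23. Bysl, a factor of late small-subunit maturation, read 3.97, 4.02, 3.64 and 4.75 (0.77 in MEP), and Utp6, a processome subunit, read 8.13, 8.08, 8.59 and 7.98 (-0.95). The list ran from Utp6 and Utp25 (-0.48) to Nol6 (0.73) and Bysl, and in LSK from Nol10 (-0.93) and Emg1 (-0.13) to Krr1 (0.38) and Ddx10 (0.41). Of 40 other large-subunit factors 30 were above, 16 higher by at least 0.32 and none lower, with a median of 0.28. They ran from Nip7 (-0.29) and Gtpbp4 (-0.25) to Pelp1 (0.67) and Gnl3l (0.75) in MEP, and from Nmd3 (-0.27) and Eif6 (-0.22) to Efl1 (0.37) and Rbm28 (0.42) in LSK. In the other direction from their lists, Utp6, Utp25 and the snoRNP assembly factors Nufip1 and Znhit3 had the highest level in MEP under DMSO, as did Noc3l. So did the RNA polymerase I factors Ubtf and Taf1d. All of these were named for a low JQ1 difference in MEP, which subtracts that array, so the choice itself favours such a level. Nip7 and Gtpbp4, also below the median gene, had their highest level in MEP under JQ1.

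Exosome subunits and cofactors, which trim ribosomal RNA precursors, had a median of 0.29 in MEP. Higher by at least 0.32 were 5 of 11, against 17.5% of all genes. The highest were Exosc3 (0.60) and the helicase gene Mtrex (0.58) and the lowest Exosc2 (-0.19) and Exosc9 (-0.09), while in LSK the list ran from Exosc2 (-0.21) and Exosc4 (-0.18) to Dis3 (0.24) and Exosc1 (0.25). The 10 snoRNP assembly factors also had a median of 0.29. Of these, 4 were higher by at least 0.32, against 17.5% of all genes, and 2 lower, near the 24.8% of all genes. They ran from -1.31 for Nufip1 and -0.54 for Znhit3 to 0.48 for the helicase genes Ruvbl1 and Ruvbl2. In LSK they ran from Nufip1 (-0.44) and Shq1 (-0.20) to Ruvbl1 (0.20) and Rpap3 (0.38). In LSK the medians of these 4 lists were 0.07, 0.12, 0.03 and 0.05, for small-subunit, large-subunit, exosome and assembly factors. Of the other RNA polymerase I factors 9 of 13 were measured and their medians were 0.00 in LSK and 0.03 in MEP, with Rrn3, an initiation factor, at 0.50, Polr1c at 0.24 and both Taf1d and Ubtf, the upstream binding factor, at -0.72 in MEP. In LSK Ubtf (-0.35) and Taf1b (-0.27) were lowest and Polr1e (0.10) and Taf1a (0.55) highest.

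Cytosolic ribosomal proteins, the end users of the pathway, read differently. In MEP 51 of 78 were above the median gene, with a median of 0.06. Only 2 were higher by at least 0.32, Rps2 and Rpl28 (0.40 and 0.36), against 17.5% of all genes. Lower was 1, Rpl17 (-0.48), against 24.8%. Rps25 was next lowest at -0.25. In LSK 3 of 78 were above the median gene. None differed by 0.32 in either direction, against 9.27% of all genes higher and 15.9% lower. The LSK median was -0.15, from Rps12 (-0.31) and Rps14 (-0.27) to Rpl36a and Rpl3 (both 0.07). Ribosomal protein probes are among the brightest of the array.

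Myc itself, on its brightest probe, read 4.17, 4.35, 3.87 and 4.35, and its JQ1 differences were 0.12 in LSK and 0.14 in MEP. Neither was beyond the between-probe SD. Its network of partners and antagonists had medians of -0.08 and -0.14, from 11 of 12 measured genes. In MEP the antagonist gene Mxd1 (-0.53) and Mlxip (-0.64) were lowest and the partner gene Max (0.21) and Myc highest. In LSK Mycl (-1.99) and Mxd3 (-0.59) were lowest and Mycn (0.33) and Mga (0.37) highest. Of 17 other known Myc targets outside ribosome biogenesis, 15 were above the median gene in MEP, with a median of 0.33. Higher by at least 0.32 in MEP were 10, against 17.5% of all genes. In LSK 9 of the targets were above the median gene, with a median of 0.00. The mitochondrial chaperone gene Hspd1 was the highest of them in both cell types, at 0.26 in LSK and 0.68 in MEP. Next were the purine synthesis genes Paics (0.09) in LSK and Ppat (0.63) in MEP, while Cad and Mthfd2 (-0.28 and -0.24) were lowest in LSK and Cad and Hspe1 (-0.25 and -0.12) in MEP.

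Markers of blood cell types also differed between the arrays. Erythroid markers had a summed level of 192, 202, 229 and 371, a sum in which the globin gene Hbb-bt weighs most in LSK: it read 7.31, 7.39, 5.64 and 6.66, lower in MEP, whereas the list's median difference of MEP from LSK under DMSO was 2.61. In MEP under JQ1, 9 of 12 were above the median gene, with a median of 0.49. Higher by at least 0.32 were 7, against 17.5% of all genes. Ermap (-0.75) and Car1 (-0.71) were the lowest there. Gata1, the erythroid master regulator, read 2.98, 2.81, 5.37 and 6.43. Alas2 was below background on 3 arrays. Megakaryocyte markers summed to 20.9, 14.9, 117 and 110, granulocyte and monocyte markers to 1979, 1310, 1524 and 2356, lymphoid markers to 347, 220, 76.4 and 58.0, and mast cell markers to 360, 306, 32.0 and 36.7. In MEP the megakaryocyte sum rests on Pf4, which was at -0.66 under JQ1. Of 7 measured markers of that list 4 were above the median gene and 3 below, with a median of 0.11. The granulocyte and monocyte sum rests on Mpo and Ctsg, and other genes of that list differed the other way: under JQ1 in LSK Camp was at 1.91 and S100a9 at 1.47, and in MEP Csf3r was at -1.29 and Lyz2 at -1.26. In LSK 9 of 10 lymphoid markers were lower by at least 0.32 under JQ1, against 15.9% of all genes, with a list median of -2.31. Stem cell markers summed to 278, 349, 125 and 137. The part of a shift in cell makeup in the differences of the 38 genes was not tested.

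**Figure D5:**
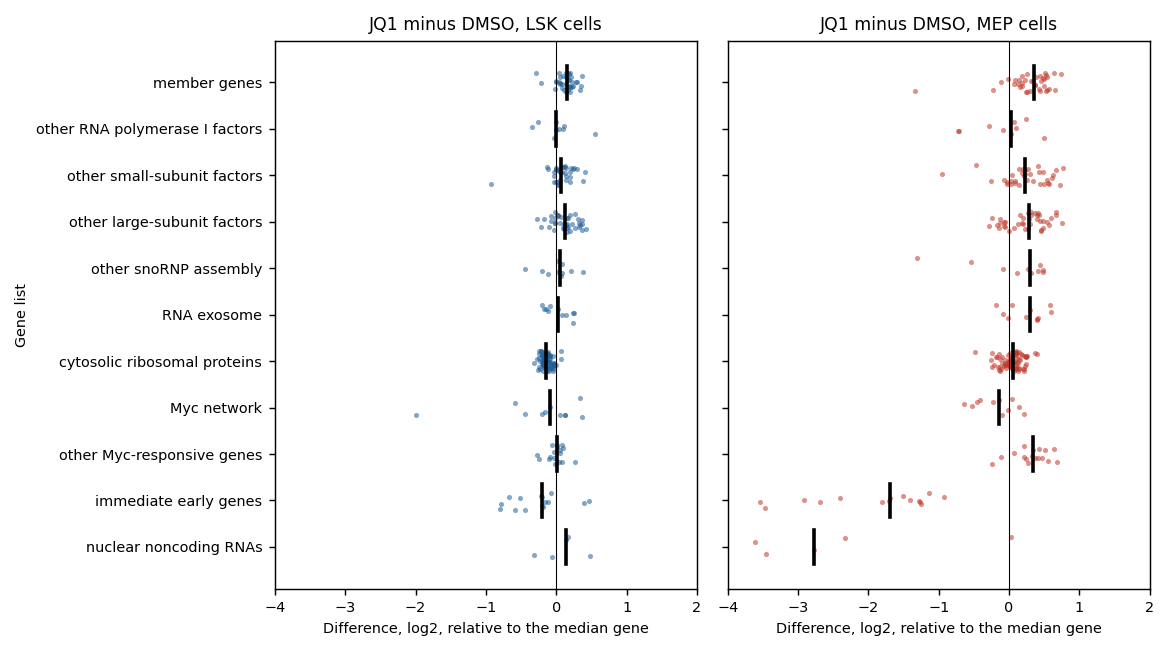
JQ1 minus DMSO difference, relative to the median measured gene, of each measured gene in the ribosome biogenesis set and the related lists, in LSK and in MEP cells; black bars are list medians. In MEP the medians are 0.35 for the 38 genes, 0.23 and 0.28 for other small- and large-subunit factors, 0.06 for ribosomal proteins and -0.14 for the Myc network.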

How the data were processed

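Cy3-labelled RNA of 4 samples was read on 4 arrays of 1 slide. Per the file headers, the authors extracted spot intensity with Feature Extraction 10.7.1.1, whose processed signal is background-subtracted and detrended. The authors' deposited table holds a linear ratio, the intensity over 1 constant per array, and served as an alternative. Yes or no marks for background and outliers in the deposited output were used as filters.

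Log2 processed signal was averaged over a probe's unmarked spots, and each array's own 75th percentile, as a log2 value, was subtracted. Probes were named through RefSeq transcripts (GRCm38.p6): 28026 of 55681 received a single symbol and 27655 none. A gene was read from its brightest probe over the 4 arrays, and other probes are given where they exist. Differences were centred on the median measured gene, genes were counted at differences of 0.32 on the log2 scale and 2-fold, and no test was run, since the number of arrays, 1 per group, limits the precision. All members are accounted for, with values on every array for at least 2 per role and for the extremes of each comparison. Of the other pathway lists the highest and lowest 2 JQ1 differences in each cell type are named, and control and marker lists are given mainly by counts, sums and medians. The members and lists were chosen with earlier results of these data known. Alternatives were spike-in scaling, no centring, centring on bright genes, quantile normalization, normexp background correction (limma 3.58.1, offset 50), the mean over probes, no filter on dim probes and the deposited table. Normexp used median spot and background signals, as the deposited output has no mean signal among the columns used. The self-test on simulated arrays was run with Python 3.11.15.
Values of 1 marker gene are not reported here.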

Additional observations from a re-analysis of the deposited data

Results flagged for a closer look

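Utp20, known from yeast as a processome protein, had JQ1 differences of opposite sign in the cell types, -0.22 in LSK and 0.42 in MEP, each larger than the between-probe SD of the brighter probes (0.14 and 0.26), though over all probes that SD was 0.26 in LSK and larger than the difference there. With spike-in scaling both signs turned, to 0.41 in LSK and -0.10 in MEP. The median gene then stood at 0.63 in LSK and -0.53 in MEP. The MEP difference exceeded the LSK difference by 0.64. With 1 array per group this difference was not tested. The gene read 1.02, 0.86, 0.51 and 1.27 in LSK under DMSO, LSK under JQ1, MEP under DMSO and MEP under JQ1.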

How the results depend on the processing

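No paired analysis was possible because each group has 1 array. Of 117 values recomputed under 9 alternatives, 88 stayed within the tolerance, 25 moved past it and 4 reversed. The tolerance was 1.5 times for a count and, for a median, the between-probe SD, which is wide: within it the median for JQ1 in MEP ran from 0.21 (quantiles) to 0.69 (uncentred), and that for MEP against LSK under JQ1 was 0.084 with spike-ins. Of the alternatives 1, centring on a curve of difference on signal, was added after the data were seen. Spike-in scaling without centring turned the members' median for JQ1 in MEP from 0.35 to -0.17 and the MEP minus LSK contrast of the JQ1 differences from 0.21 to -0.95; without a filter on dim probes that contrast was -0.021. Spike-in scaling also gave medians of 0.79 for JQ1 in LSK and 1.09 for MEP against LSK under DMSO, which was -0.036 without centring. Members higher by at least 0.32 numbered, for JQ1 in LSK (3), 14 without the filter (19.2% of all genes), 7 with normexp (6.06%), 5 uncentred (13.7%), 38 with spike-ins (83.7%) and 1 with quantiles (10.1%); for JQ1 in MEP (20), 34 uncentred (51.8%), 0 with spike-ins (1.47%) and 7 with quantiles (19.0%); for MEP against LSK under DMSO (9), 19 without the filter (31.5%), 5 uncentred (15.6%) and 38 with spike-ins (88.3%); and under JQ1 (19), 12 without the filter (15.9%) and 4 with spike-ins (9.09%). Members lower by at least 0.32 are given in the same way. For JQ1 in LSK (0) there was 1 on the curve (14.1% of all genes). For JQ1 in MEP (1) there were 2 when centred on bright genes (30.7%), 12 with spike-ins (71.5%), 2 with quantiles (21.6%) and 2 on the curve (22.1%). For MEP against LSK under DMSO (0) there were 9 uncentred (40.5%), 1 with quantiles (25.1%) and 1 on the curve (23.7%). Under JQ1 (1) there were 0 with normexp (15.7%) and 0 uncentred (17.3%). Spike-in scaling and no centring add 1 constant to every gene of a comparison, so the members kept their distance from the median gene. With spike-ins the median of all genes was 0.63 for JQ1 in LSK and -0.53 in MEP. For MEP against LSK it was 0.91 under DMSO and -0.24 under JQ1. Uncentred it was 0.34 for JQ1 in MEP and -0.22 for MEP against LSK under DMSO. The cause of the other shifts was not tested. Noc3l was the lowest member for JQ1 in both cell types in every setting run. All probes of the members were well above background.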
